A study of Capra hircus with 9 samples.

Results

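miR-21 was followed in the submandibular gland of the goat as every entry of the deposited miRNA table whose name carries the number 21 directly after miR-. The rule found 4 of the 2189 entries: the goat-named chi-miR-21-5p and chi-miR-21-3p, and miR-21-x and miR-21-y, 2 entries without a species name. The libraries came from 9 healthy female Lubo goats kept under shared conditions, with 3 goats aged 1 month, 3 aged 12 months and 3 aged 24 months. No goat was treated, and each library was made from the total RNA of gland tissue. Libraries are named below by age and replicate number: 1-month 1, 2 and 3, 12-month 3, 4 and 5, and 24-month 2, 3 and 5. 1-month 2 stands apart in its cell type markers, given further on, so the comparisons with 1 month are also given without it.

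A miRNA is a short RNA that guides Argonaute proteins to messenger RNAs, mainly through its seed, bases 2 to 8 counted from the 5′ end. A hairpin precursor yields a 5p and a 3p strand, and for miR-21 the 5p strand is the well-known guide. miR-21 is abundant in many tissues, and it is known for its induction in inflammation, fibrosis and tumours. In the goat gene table of RefSeq (assembly ARS1.2), MIR21 lies between VMP1, a protein-coding gene of autophagy, and a long non-coding RNA, with TUBD1 as the nearest protein-coding gene beyond it, and 0 annotated genes enclose it. The genome build of the deposited files is not given in the sources used here, so no coordinates are printed.

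The sequences of the 4 entries are shown because they decide which entries share a seed. Capitals mark the seed, and letters are DNA letters as deposited.
chi-miR-21-5p: tAGCTTATcagactgatgttgac
miR-21-x: tAGCTTATcagactggtgttggc
chi-miR-21-3p: cAACAGCAgtcgatgggctgt
miR-21-y: cGACAACAgtctgtaggctgt
Of the 4, chi-miR-21-5p and miR-21-x were both 23 bases long and had the same seed. The 3p strand and miR-21-y were 21 bases long and had different seeds, each carried by 1 entry of the table.

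The bases that separate each goat-named entry from its counterpart are in capitals in the second set, with positions counted from 1 at the 5′ end.
chi-miR-21-5p: tagcttatcagactgAtgttgAc
miR-21-x: tagcttatcagactgGtgttgGc
chi-miR-21-3p: cAacaGcagtcGAtGggctgt
miR-21-y: cGacaAcagtcTGtAggctgt
From chi-miR-21-5p to miR-21-x the substitutions were A16G and A22G, both outside the seed. From chi-miR-21-3p to miR-21-y they were A2G, G6A, G12T, A13G and G15A, of which A2G and G6A lie in the seed. The species from which the names miR-21-x and miR-21-y were taken is not given in the sources used here. Only 1 other entry of the table carried the seed of chi-miR-21-5p: miR-3967-y, with 5 counts in 1-month 2, 2 counts in 12-month 4 and 0 counts elsewhere. It differed from chi-miR-21-5p by T1G and A10T over its length. No other entry shared 15 or more unbroken bases with chi-miR-21-5p.

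chi-miR-21-5p was a leading miRNA of the gland at every age. Levels are given in unscaled CPM, the count scaled by the total of its own library alone, with no correction for length. At 1 month chi-miR-21-5p stood at 11204, 11397 and 18709 CPM in 1-month 1, 2 and 3. At 12 months it stood at 11689, 7381 and 6127 CPM in 12-month 3, 4 and 5. At 24 months it stood at 6906, 6366 and 9551 CPM in 24-month 2, 3 and 5. The highest library was 1-month 3, the 24-month libraries all lay under the 1-month ones, and the 12-month libraries overlapped both ages. Among all entries it ranked from 13th in 1-month 3 to 30th in 24-month 3, and its mean of 9926 CPM over the 9 libraries placed it 24th. Its neighbours in that order were chi-miR-200b, an epithelial miRNA, at 10100 CPM and chi-miR-125a-5p at 9924 CPM, differences far below the spread of chi-miR-21-5p itself.

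Between ages, chi-miR-21-5p did not pass the test. Its mean was 13770 ± 4278 CPM at 1 month, 8399 ± 2917 at 12 months and 7608 ± 1705 at 24 months (SD, n = 3 goats each). After TMM scaling, which corrects library totals for composition, the means were 12297 ± 2950, 8708 ± 3266 and 8231 ± 2201 CPM, and all 3 ages overlapped. From 1 to 12 months the log2 difference was -0.50 (SE 0.37, 95% interval -1.31 to 0.31, adjusted p = 0.331 by edgeR's quasi-likelihood test with Benjamini-Hochberg adjustment over 937 entries). From 1 to 24 months it was -0.58 (SE 0.37, 95% interval -1.39 to 0.23, edgeR adjusted p = 0.259), and from 12 to 24 months -0.08 (SE 0.37, 95% interval -0.89 to 0.73, edgeR adjusted p = 0.998). The interval from 1 to 24 months spans a fall of more than 2-fold on one side and a small rise on the other. Without 1-month 2 the log2 differences from 1 to 12 and from 1 to 24 months were -0.54 and -0.62 (edgeR adjusted p = 0.276 and 0.205). The difference from 12 to 24 months turned to 0.44 without 12-month 3, 0.20 without 24-month 2 and 0.27 without 24-month 3.

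The background of these tests was large. From 1 to 12 months 180 of 937 entries (19.2%) passed an adjusted p of 0.05, and from 1 to 24 months 246 (26.3%), while 0 of the 4 miR-21 entries passed in either comparison. From 12 to 24 months 0 entries (0%) passed in edgeR, DESeq2 or limma voom, and 40, 42 and 14 had an unadjusted p under 0.05. Entries whose TMM-scaled libraries all lay lower at the later age made up 22.2% from 1 to 12 months, 3.74% from 12 to 24 months and 25.8% from 1 to 24 months, and again 0 of the 4 miR-21 entries were among them. In unscaled CPM, chi-miR-21-5p, chi-miR-21-3p and miR-21-y did lie lower at 24 months than at 1 month without overlap. The share of all entries doing so was not counted on that scale, so this has no background beside it. The median log2 difference over all tested entries was -0.02, -0.03 and -0.06 for 1 to 12, 12 to 24 and 1 to 24 months.

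**Figure D1:**
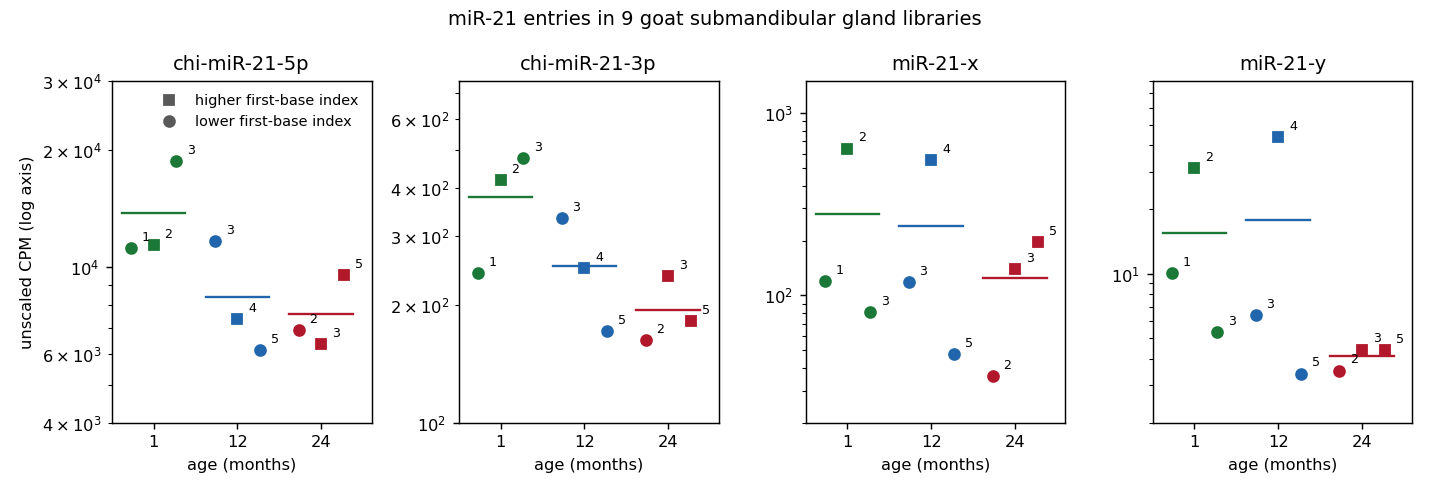
Unscaled CPM (log axis, a separate range in each panel) of the 4 miR-21 entries against age in months; each point is 1 goat with its replicate number, bars are means of 3 goats, and squares mark the 4 libraries with the higher first-base index described in the text. chi-miR-21-5p lies between 6127 and 18709 CPM, while miR-21-x and miR-21-y are high in 1-month 2 and 12-month 4.

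The goat-named 3p strand was far scarcer than the 5p strand and had a similar profile over the libraries. chi-miR-21-3p stood at 242, 418 and 477 CPM in 1-month 1, 2 and 3, at 334, 249 and 171 CPM in 12-month 3, 4 and 5, and at 163, 238 and 182.1 CPM in 24-month 2, 3 and 5. As for the 5p strand, 1-month 3 was the highest library and the unscaled 24-month values all lay under the 1-month values, by a narrow margin between 238 and 242 CPM. After TMM scaling these ages overlapped. Means were 379 ± 122, 251 ± 81.3 and 194 ± 38.8 CPM at 1, 12 and 24 months (SD, n = 3 goats each). The log2 difference was -0.42 (SE 0.40, edgeR adjusted p = 0.452) from 1 to 12 months, -0.31 (SE 0.40, edgeR adjusted p = 0.998) from 12 to 24 months and -0.73 (SE 0.40, 95% interval -1.61 to 0.16, edgeR adjusted p = 0.190) from 1 to 24 months. Without 1-month 2 the first and the last were -0.23 and -0.54 (edgeR adjusted p = 0.656 and 0.288). From 12 to 24 months the sign turned without 12-month 3 (0.15) or 24-month 2 (0.011).

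The ratio of the strands needs no scaling between libraries, since both counts come from the same library. chi-miR-21-3p amounted to 2.16, 3.67 and 2.55% of chi-miR-21-5p in 1-month 1, 2 and 3. It amounted to 2.86, 3.37 and 2.80% in the 12-month libraries and to 2.36, 3.73 and 1.91% in the 24-month libraries, in the order of their numbers. The ages overlapped, and the span over the 9 libraries stayed under 2-fold. The log2 ratio differed by 0.14, -0.23 and -0.09 from 1 to 12, 12 to 24 and 1 to 24 months (exact two-sided permutation p = 0.5, 0.5 and 0.8, adjusted over the 3 comparisons 0.75, 0.75 and 0.8). With 3 goats against 3 the smallest p this test allows is 0.1. From 1 to 24 months the sign turned without 1-month 2 (0.13) or 24-month 5 (0.12), and from 1 to 12 months without 1-month 1 (-0.029).

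miR-21-x varied between goats of the same age far more than between ages. It stood at 120, 638 and 80.8 CPM in 1-month 1, 2 and 3, at 119, 553 and 47.5 CPM in 12-month 3, 4 and 5, and at 36.2, 139 and 197 CPM in 24-month 2, 3 and 5. 1-month 2 and 12-month 4 held the highest values, although neither led in chi-miR-21-5p, and all ages overlapped. Means were 280 ± 311, 240 ± 273 and 124 ± 81.3 CPM at 1, 12 and 24 months (SD, n = 3 goats each), with an SD above the mean at 1 and 12 months. The log2 difference was -0.26 (SE 1.02, 95% interval -2.51 to 1.99, edgeR adjusted p = 0.864) from 1 to 12 months, -0.79 (SE 1.02, edgeR adjusted p = 0.998) from 12 to 24 months and -1.05 (SE 1.03, 95% interval -3.32 to 1.22, edgeR adjusted p = 0.469) from 1 to 24 months. Single libraries set these signs: without 1-month 2 the differences from 1 month were 1.46 and 0.67 (edgeR adjusted p = 0.351 and 0.644), and without 12-month 4 that from 12 to 24 months was 0.61.

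miR-21-y was the scarcest of the 4, at 10.1, 31.3 and 5.33 CPM in 1-month 1, 2 and 3, at 6.39, 43.8 and 3.40 CPM in 12-month 3, 4 and 5, and at 3.52, 4.40 and 4.39 CPM in 24-month 2, 3 and 5. It was high in the same 2 libraries as miR-21-x, and its counts there were 416 and 390 against 38 to 104 in the other 7. Means were 15.6 ± 13.9, 17.9 ± 22.5 and 4.10 ± 0.511 CPM at 1, 12 and 24 months (SD, n = 3 goats each). The log2 difference was 0.18 (SE 0.89, edgeR adjusted p = 0.891) from 1 to 12 months, -1.97 (SE 0.93, edgeR adjusted p = 0.998) from 12 to 24 months and -1.79 (SE 0.93, edgeR adjusted p = 0.164) from 1 to 24 months. Without 1-month 2 the first was 1.41 and the last -0.56 (edgeR adjusted p = 0.305 and 0.662). The small difference from 1 to 12 months turned sign without 12-month 4 (-1.52), without 1-month 1 or 1-month 3 (-0.081 and -0.24), and without any 1 of the 24-month libraries (-0.12 to -0.13). In the unscaled values the 24-month libraries all lay under the 1-month ones, and after TMM scaling they overlapped. One test over all 3 ages gave adjusted p-values of 0.413, 0.370, 0.704 and 0.252 for chi-miR-21-5p, chi-miR-21-3p, miR-21-x and miR-21-y by edgeR.

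**Figure D2:**
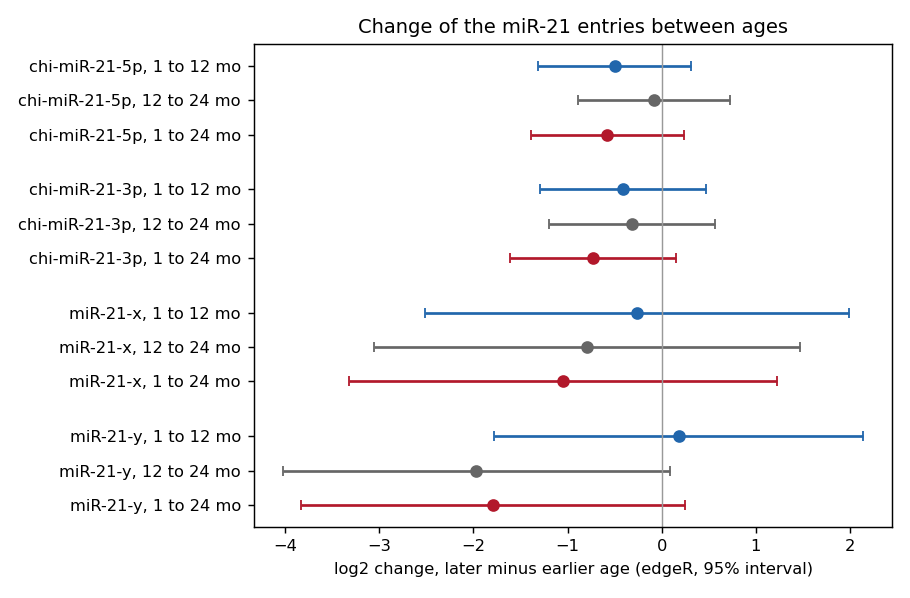
Log2 difference between ages (later minus earlier) of the 4 miR-21 entries on the horizontal axis, with points for the edgeR estimate and bars for its 95% interval, n = 3 goats per age. Every interval crosses 0, and those of miR-21-x and miR-21-y are wider than those of the goat-named strands.

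The ratio of miR-21-x to chi-miR-21-5p shows the same split between libraries within each age. It was 1.07, 5.60 and 0.432% in 1-month 1, 2 and 3, 1.02, 7.49 and 0.775% in 12-month 3, 4 and 5, and 0.524, 2.18 and 2.06% in 24-month 2, 3 and 5. The highest ratio was 17.3 times the lowest, and 1 library at 1 month, 1 at 12 months and 2 at 24 months lay above 2%. As a share of the counts of both entries, miR-21-x reached 6.97% in 12-month 4 (Wilson 95% interval 6.78 to 7.16) and 0.430% in 1-month 3 (0.403 to 0.458). These intervals cover counting error only, and reads without molecular identifiers are not independent molecules.

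Mean ratios by age were 2.37 ± 2.82% at 1 month, 3.09 ± 3.81% at 12 months and 1.59 ± 0.924% at 24 months (SD, n = 3 goats each). The mean log2 ratio differed by 0.40 from 1 to 12 months, by -0.44 from 12 to 24 months and by -0.04 from 1 to 24 months (exact two-sided permutation p = 0.8, 0.8 and 1, each 1 after adjustment over the 3 comparisons). Age differences were thus smaller than the SD of the log2 ratio within an age, which was 1.87, 1.79 and 1.17 at 1, 12 and 24 months. Without 1-month 2 and 12-month 4 together, a choice made after their values were seen, the log2 ratio differed by 0.97 from 1 to 24 months and by 0.58 from 12 to 24 months, so the direction turned. The sign from 1 to 24 months also turned without 1-month 2 (0.97) or 24-month 2 (0.63) alone, that from 12 to 24 months without 12-month 4 (0.58) or 24-month 2 (0.23), and that from 1 to 12 months without 12-month 4 (-0.63) or 1-month 3 (-0.44).

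**Figure D3:**
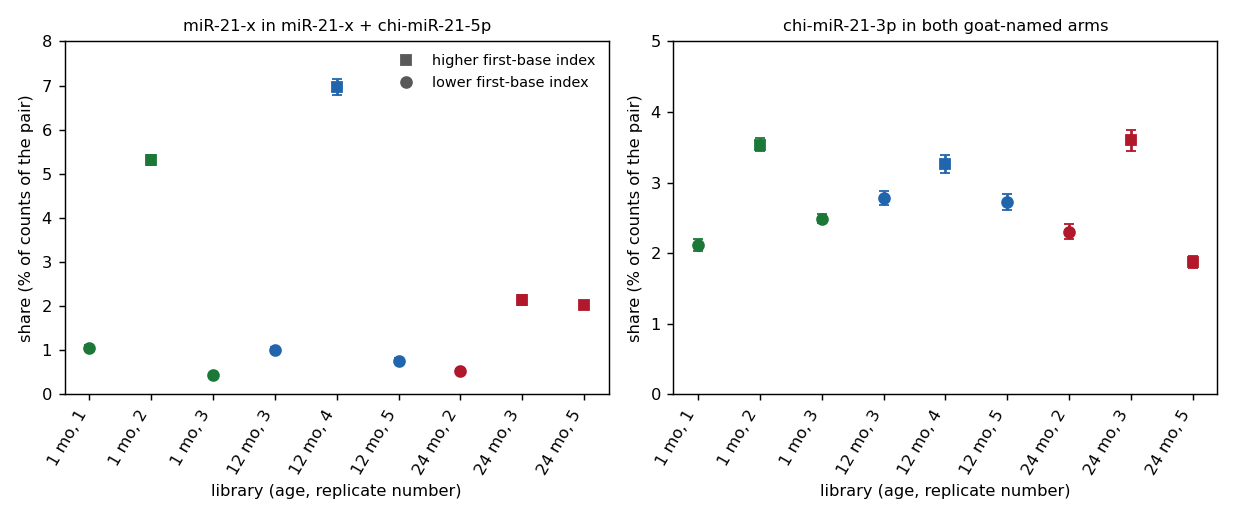
Left, miR-21-x as a percentage of the counts of miR-21-x and chi-miR-21-5p; right, chi-miR-21-3p as a percentage of both goat-named strands; each point is 1 library (age in months, replicate number) with its Wilson 95% interval, and squares mark the higher first-base index. The left share runs from 0.430 to 6.97% with all 4 squares above all circles, and on the right the squares and circles overlap.

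A measure taken from other miRNAs moved with that ratio. In the table, 17 entries without a species name and with at least 18 bases match 1 of 16 goat-named entries from base 2 on but start with another base, and none of them is a miR-21 entry. The first-base index of a library is the median, over the 7 such pairs abundant enough to compare, of the log2 ratio of variant to goat-named entry, each pair centred on its own mean. It was -0.55, 0.78 and -0.30 in 1-month 1, 2 and 3, -0.61, 1.06 and -0.19 in 12-month 3, 4 and 5, and -1.41, 0.98 and 0.74 in 24-month 2, 3 and 5. The widest gap, 0.93, set apart 1-month 2, 12-month 4, 24-month 3 and 24-month 5. This split was found in the data and is no label of the study, and it gets no test.

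In those 4 libraries miR-21-x amounted to between 2.06 and 7.49% of chi-miR-21-5p (median 3.89%), and in the other 5 to between 0.432 and 1.07% (median 0.775%), with no overlap. The unscaled level of miR-21-x itself also lay higher in all 4 than in any of the other 5, which held for 22 of 937 tested entries (2.35%) and for none of the other 3 miR-21 entries. 1 of the 22 is a first-base variant. The ratio of the goat-named strands overlapped, with 1.91 to 3.73% in the 4 libraries and 2.16 to 2.86% in the other 5. miR-21-y was high only in 1-month 2 and 12-month 4 and not in the 24-month libraries of the same side. The part of the first-base index in the spread of miR-21-x was not tested.

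The pairing of a goat-named miRNA with a slightly different entry was not particular to miR-21. At a mean of at least 10 CPM, 46 entries without a goat name differed from a goat-named entry by 1 to 3 substitutions over their shared length. Lengths could be up to 3 bases apart. This set was made after the sequences of miR-21-x had been seen. Their median ratio to the goat-named entry was 5.74%, and in 18 of 46 (39.1%), miR-21-x included, the ratio in each of the 4 libraries of higher index lay above that in each of the other 5, while it lay below in 0. Of the 46, 3 are first-base variants, the kind of entry the index was made from, and all 3 are among the 18. Without them the count was 15 of 43 (34.9%). Ratios of other pairs of entries were not counted in this way, so neither count has a background beside it. Others of the 46, some of the 18 among them, begin with the whole sequence of another goat-named entry. Since an exact start did not count as a near copy, they were set against a relative of that entry. Their ratio is thus one between relatives, and they were not set aside in these counts, medians and ranks. The log2 difference between the medians of the 4 and the 5 libraries was 2.33 for miR-21-x, behind only miR-8-y (against chi-miR-141) at 3.58 and miR-98-x (against chi-let-7a-5p) at 2.48, and its median over the 46 was 0.68. The span from the lowest to the highest library, 17.3-fold for miR-21-x, ranked 3 of the 46, whose median was 3.38-fold.

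**Figure D4:**
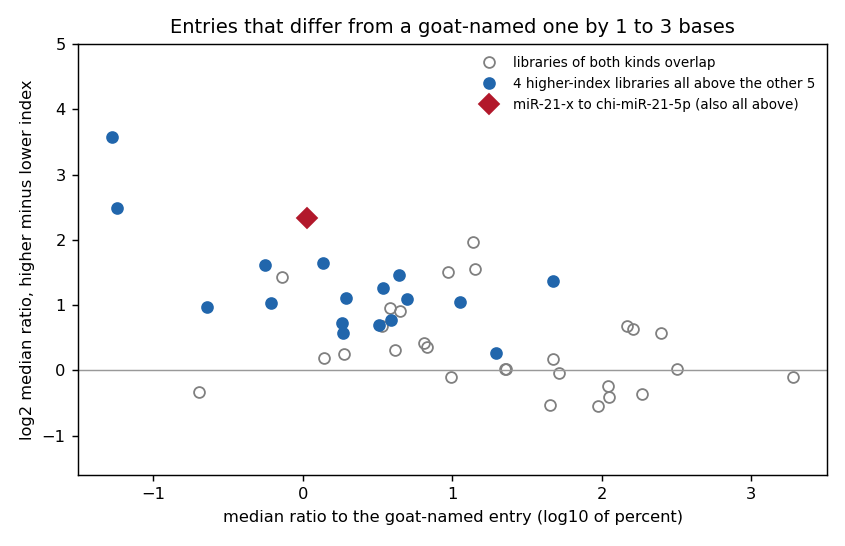
Each point is 1 of 46 entries that differ from a goat-named entry by 1 to 3 bases over their shared length: horizontal, its median ratio to that entry over 9 libraries (log10 of percent); vertical, the log2 difference of median ratio between the 4 libraries of higher and the 5 of lower first-base index. Filled points are the 18 entries whose libraries do not overlap, and the diamond is miR-21-x at 2.33.

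miR-21-y and miR-21-x were compared with each other as well. miR-21-y amounted to 8.41, 4.91 and 6.60% of miR-21-x in 1-month 1, 2 and 3, to 5.38, 7.92 and 7.16% in 12-month 3, 4 and 5, and to 9.72, 3.17 and 2.23% in 24-month 2, 3 and 5. The lowest values were those of 24-month 3 and 24-month 5, where miR-21-x was above 2% of chi-miR-21-5p and miR-21-y was at no more than 4.40 CPM. Against chi-miR-21-3p, miR-21-y reached 7.49% in 1-month 2 and 17.6% in 12-month 4 and stayed between 1.12 and 4.16% in the other 7 libraries. Of all counts under a miR-21 name, chi-miR-21-5p made up 89.7 to 97.2%, chi-miR-21-3p 1.83 to 3.52%, miR-21-x 0.419 to 6.72% and miR-21-y 0.0277 to 0.532%.

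The profile of each entry over the 9 libraries was set against 784 tested entries with a miRNA name, the miR-21 entries left out, by the root mean square difference of log2(TMM CPM + 0.5) centred on each entry's mean. Both goat-named strands lay close together, at 0.32, where the median over all named entries was 0.84 for chi-miR-21-5p and 0.86 for chi-miR-21-3p. Some entries outside miR-21 lay nearer still to each strand, so this closeness is not particular to the pair. chi-miR-21-5p and miR-21-x, which share the seed, lay 1.35 apart. That is above the median for chi-miR-21-5p but below the median for miR-21-x, which was 1.52. Outside miR-21, nearest to chi-miR-21-5p were chi-miR-330-5p (0.22, at a mean of only 1.35 CPM), chi-miR-532-5p (0.27), chi-miR-221-5p (0.29), chi-miR-98-5p (0.31) and chi-miR-218 (0.33). chi-miR-532-5p stood at 344, 325 and 394 CPM at 1 month, 210.3, 189 and 203.3 CPM at 12 months and 160, 152 and 208 CPM at 24 months, in the order of the replicate numbers. Nearest to chi-miR-21-3p outside miR-21 were chi-miR-221-5p (0.27), chi-miR-877-5p (0.28), chi-miR-330-3p (0.29), chi-miR-222-3p (0.30) and miR-409-x (0.35).

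The nearest profiles of miR-21-x and miR-21-y were mostly those of other entries without a species name. Nearest to miR-21-x outside miR-21 were miR-144-x (0.61), miR-19-z (0.70), miR-146-x (0.73), miR-194-x (0.73) and miR-361-x (0.78), all farther off than the neighbours of the goat-named strands. The median over all named entries was also larger, at 1.52 for miR-21-x and 1.38 for miR-21-y. miR-194-x is one of the first-base variants. Nearest to miR-21-y outside miR-21 were miR-146-x (0.23), miR-7132-y (0.45), miR-2188-y (0.52), miR-144-x (0.53) and chi-miR-144-3p (0.56), while miR-21-x and miR-21-y lay 0.65 apart. miR-146-x stood at 288, 817 and 217 CPM at 1 month, 208, 884 and 114 CPM at 12 months and 107, 116 and 123 CPM at 24 months. It was thus high in the same 2 libraries as miR-21-y. In mean CPM chi-miR-21-3p (275) stood between miR-574-x and miR-4454-x, miR-21-x (214.4) between chi-miR-1 and chi-miR-708-3p, and miR-21-y (12.5) between miR-1468-x and miR-3957-y.

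**Figure D5:**
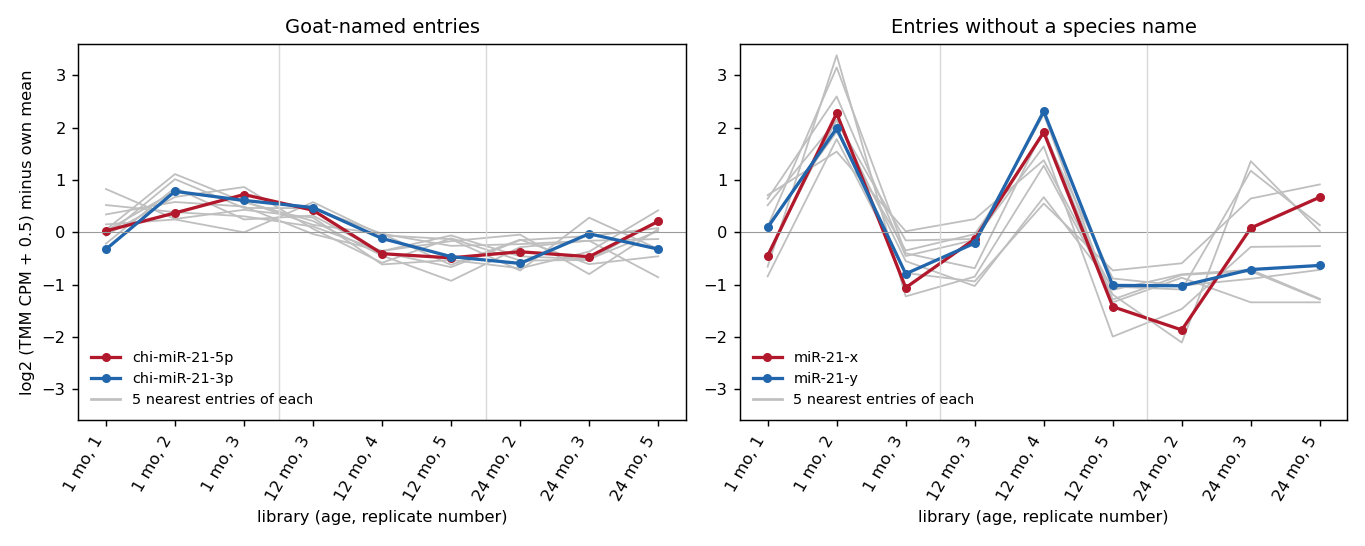
Log2(TMM CPM + 0.5) minus each entry's own mean over the 9 libraries (age in months, replicate number); coloured lines are the miR-21 entries and grey lines the 5 nearest named entries of each. The goat-named strands (left) lie 0.32 apart, and miR-21-x and miR-21-y (right) peak in 1-month 2 and 12-month 4.

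The 1-month libraries also differed from the later ones in markers of other cells, a difference present in every comparison with that age. Leukocyte miRNAs (17 entries, 10 of them detected in all libraries, led by miR-142-x) took 3.49, 12.3 and 5.36% of counts in 1-month 1, 2 and 3, 0.423 to 0.4997% at 12 months and 0.338 to 0.466% at 24 months. Epithelial miRNAs (led by chi-miR-200a) took 0.875 to 5.82% of counts in the 1-month, 10.3 to 11.9% in the 12-month and 10.7 to 11.8% in the 24-month libraries, and gland miRNAs (led by chi-miR-148a-3p) 1.38 to 8.53%, 14.2 to 16.8% and 16.9 to 17.9%. Mesenchymal miRNAs (led by chi-miR-143-3p) took 1.66 to 13.6%, 6.91 to 9.04% and 6.51 to 6.82%. 1-month 2 had the highest leukocyte and the lowest epithelial, gland and mesenchymal share of the 9 libraries, while its chi-miR-21-5p level, 11397 CPM, was near the 11204 CPM of 1-month 1. Red cell miRNAs (led by miR-486-x) took 0.0735 to 0.403%, endothelial miRNAs (led by chi-miR-126-3p) 0.441 to 1.45% and muscle miRNAs (led by chi-miR-1) 0.0150 to 0.247% over all libraries. The highest muscle share was that of 12-month 4, with chi-miR-1 at 855 CPM, and the next highest was 0.0606% in 1-month 1. The part of all these markers in the miR-21 values was not tested, and in bulk tissue fewer cells of a type and less RNA per cell cannot be told apart.

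Of miRNAs known to be induced with miR-21 in inflammation, some passed the test, and all of these were lower after 1 month. More passed from 1 to 24 months than from 1 to 12 months. The list holds miR-146, miR-147, miR-155, miR-132, miR-212, miR-221 and miR-222, with 18 of 24 entries tested. From 1 to 12 months 2 of the 18 fell and 0 rose (median log2 difference -0.99, against -0.02 over all tested entries), and over all tested entries 124 of 937 (13.2%) fell, so the count is near the background. From 1 to 24 months 7 of the 18 fell and 0 rose (median -1.39, against -0.06), and over all tested entries 164 of 937 (17.5%) fell. The calls from 1 to 12 months were the 2 miR-155 entries alone. Those from 1 to 24 months were 2 of 2 miR-155, 2 of 4 miR-146, 1 of 1 miR-147, 1 of 2 miR-212 and 1 of 5 miR-221 entries. No miR-132 or miR-222 entry passed in either comparison. chi-miR-155-5p, a miRNA of activated lymphocytes and macrophages, averaged 803 ± 517 TMM-scaled CPM in the 1-month libraries, 72.5 ± 26.3 in the 12-month ones and 74.4 ± 23.0 in the 24-month ones (SD, n = 3 goats each), and fell. Its log2 difference was -3.47 (SE 0.53, edgeR adjusted p = 0.00233) from 1 to 12 months and -3.43 (SE 0.53, edgeR adjusted p = 0.00220) from 1 to 24 months. It belongs to the leukocyte list above, whose share was at its highest at 1 month.

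chi-miR-146b-5p, whose family restrains innate immune signalling, fell by 2.06 on the log2 scale from 1 to 24 months (SE 0.57, edgeR adjusted p = 0.0259) and differed by -1.51 (edgeR adjusted p = 0.0735) from 1 to 12 months. chi-miR-146a, the most abundant entry of the list, differed by -0.53 (edgeR adjusted p = 0.294) and -0.88 (edgeR adjusted p = 0.0886), nearer to the values of chi-miR-21-5p. The 7 calls from 1 to 24 months became 4 without 1-month 2, 4 without 1-month 3, 3 without 24-month 2 and 1 without 24-month 3. The 2 calls from 1 to 12 months became 6 without 12-month 3, 6 without 24-month 2, and 7 without 24-month 3 or without 24-month 5. The fits with 1 library left out tested 18 or 19 entries of the list. Calls over all entries were not counted in them, so these counts have no background beside them. chi-miR-155-5p passed in both comparisons whichever library was left out, and the call of chi-miR-146b-5p from 1 to 24 months was lost without 1-month 2, 1-month 3, 24-month 2 or 24-month 3, with edgeR adjusted p from 0.0130 to 0.0849 over the 9 libraries left out. From 1 to 12 months chi-miR-146b-5p passed without 12-month 3 (log2 difference -2.605), 24-month 3 (-1.85) or 24-month 5 (-1.84).

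Among families tied to fibrosis alongside miR-21 (miR-199, miR-214 and miR-192, with 13 of 15 entries tested), 0 passed in either comparison with 1 month (median log2 difference -0.62 and -0.76, against -0.02 and -0.06 over all tested entries). chi-miR-199a-5p, abundant in mesenchymal cells, differed by -0.40 (edgeR adjusted p = 0.529) and -0.70 (edgeR adjusted p = 0.266) from 1 to 12 and from 1 to 24 months. chi-miR-199a-3p, chi-miR-199b-3p and chi-miR-199c-3p had identical counts in the table and differed by -1.15 (edgeR adjusted p = 0.149) and -1.40 (edgeR adjusted p = 0.0798). Without 1-month 2, 5 and 8 entries of the list fell, which are 3 and 5 when entries of identical counts are counted once (10 of the 13 are distinct), among them chi-miR-199b-3p (-1.62 and -1.87) in both comparisons and chi-miR-199a-5p (-1.08) from 1 to 24 months. Calls over all entries were not counted in that fit, so the 5 and 8 have no background beside them. miR-199 and miR-214 are also on the mesenchymal list. Its share was 1.66% in 1-month 2, against 10.7 and 13.6% in 1-month 1 and 3, so leaving out 1-month 2 also changes that share at 1 month. The part of the mesenchymal share in these calls was not tested.

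Families described as brakes on fibrosis (miR-29, miR-30, miR-133 and miR-200, with 29 of 33 entries tested) held entries that rose, in part of their families. From 1 to 12 months 9 of the 29 rose and 0 fell (median log2 difference 1.25, against -0.02 over all tested entries), and over all tested entries 56 of 937 (5.98%) rose. From 1 to 24 months 11 of the 29 rose and 0 fell (median 1.42, against -0.06), and over all tested entries 82 of 937 (8.75%) rose. The calls from 1 to 12 months were 5 of 7 miR-29, 2 of 6 miR-200 and 2 of 13 miR-30 entries, and those from 1 to 24 months 5, 3 and 3 of the same families. None of the 3 miR-133 entries passed in either comparison, and 2 of them had a log2 difference below 0 from 1 to 24 months. miR-30-x rose by 0.95 (SE 0.29, edgeR adjusted p = 0.0450) and 0.93 (SE 0.29, edgeR adjusted p = 0.0402), calls that were lost whenever a library other than 1-month 2 was left out. chi-miR-200a differed by 1.89 (edgeR adjusted p = 0.0695) and 2.03 (edgeR adjusted p = 0.0506) and chi-miR-30e-5p by 0.24 (edgeR adjusted p = 0.686) and 0.27 (edgeR adjusted p = 0.678). Without 1-month 2 chi-miR-200a passed in both (1.33 and 1.48), as it did from 1 to 24 months without 1-month 1 (2.598). The miR-200 family is also on the epithelial list, whose share was lowest at 1 month. The 9 calls became 15 without 1-month 2, 4 without 12-month 3, 5 without 12-month 4 and 3 without 12-month 5. The 11 calls became 17 without 1-month 2, 6 without 24-month 3, and 7 without 1-month 3, 12-month 3, 12-month 5, 24-month 2 or 24-month 5. These fits tested 29 or 31 entries of the list, and calls over all entries were not counted in them. From 12 to 24 months 0 members of the 3 lists passed.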

How the data were processed

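Small RNA reads of 9 goat submandibular glands were counted per miRNA entry by the authors, who deposited the table of unscaled counts, per the file headers. The submitters' processing notes name FastQC and Bowtie and no version of either, and no mismatch setting is given in the sources used here. Reads of near-identical entries may therefore be split between them, and the values of miR-21-x, 2 substitutions from chi-miR-21-5p, are uncertain to that degree. miR-21-y differs from chi-miR-21-3p by 5 substitutions, and how far the same holds for it was not tested. Library totals ran from 8288492 to 13277448 counts. A filter (edgeR filterByExpr, minimum count 10, minimum total 15) kept 937 of 2189 entries, all 4 miR-21 entries among them. All libraries were fitted together in edgeR 4.0.16 (R 4.3.3) with TMM factors and a robust quasi-likelihood F test with 6 residual degrees of freedom for the design, and p-values were adjusted by Benjamini-Hochberg. The biological coefficient of variation was 0.534. Ratios were compared by exact permutation in scipy 1.17.1. The edgeR test was checked on simulated data with large differences only. How often it finds differences as small as those of chi-miR-21-5p was not tested. The exact permutation was not part of that simulation.

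The members and lists were chosen with earlier results of these data known. Named were the members, entries sharing their seed or 15 bases, the 5 nearest profiles of each member, neighbours in mean CPM, the 3 most abundant entries of each list and the most abundant of each marker list. Named beyond this were chi-miR-141, chi-let-7a-5p, miR-8-y and miR-98-x, after their values were seen. DESeq2 1.42.0, limma voom 3.58.1, other scalings and filters, a replicate block and leaving out libraries were alternatives. The first-base split, the set of near copies and leaving out 1-month 2 with 12-month 4 were added after seeing the data. Replicate numbers do not pair goats in the labels. Profiles of different libraries correlated at r = 0.910 to 0.985 within an age.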

Additional observations from a re-analysis of the deposited data

How the results depend on the processing

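Over the alternatives run for the 4 miR-21 entries and the ratios, 284 values were counted as unchanged. Another 40 turned direction and 3 passed the threshold where the reported value had not. Unchanged means the same direction and, for the entries, the same side of the threshold. The ratios, and entry values without an adjusted p, were compared by direction alone. For chi-miR-21-5p from 12 to 24 months the log2 difference was 0.00056 with at least 10 CPM in 3 libraries and 0.016 with goat-named entries only. miR-21-x from 1 to 24 months was -1.51 (edgeR adjusted p = 0.0212) once the first-base split entered the fit, and miR-21-y was -1.86 (edgeR adjusted p = 0.0294) in that fit and -2.04 (edgeR adjusted p = 0.00919) with no filter. The split was found in these same data, and miR-21-x lay higher in all libraries of its higher side. The p-values of the fit with the split therefore give no support for a difference between ages. Without 1-month 2 and 12-month 4 together, miR-21-x was 0.088, 0.60 and 0.69 from 1 to 12, 12 to 24 and 1 to 24 months, and the ratio of miR-21-x to chi-miR-21-5p 0.58 and 0.97 in the last 2. In the 5 libraries of lower index alone, miR-21-x was 0.077 from 1 to 12 months. miR-21-y from 1 to 12 months was -0.075 in limma voom, -0.041 with no filter, -0.055 at 10 CPM, -0.12 with both ages only, -0.0042 with the first-base covariate, -0.31 in the 5 libraries and -0.30 without the 2. The cause of these changes was not tested.

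Leaving out 1 library at a time gave, for 1 to 12, 12 to 24 and 1 to 24 months, -1.16 to -0.29, -0.21 to 0.44 and -0.97 to -0.36 for chi-miR-21-5p, -1.01 to -0.23, -0.37 to 0.15 and -0.99 to -0.54 for chi-miR-21-3p, -1.62 to 1.46, -1.12 to 0.61 and -1.67 to 0.67 for miR-21-x, and -1.52 to 1.41, -2.20 to -0.24 and -2.20 to -0.56 for miR-21-y. The ratio of miR-21-x to chi-miR-21-5p ran from -0.63 to 1.41, -1.05 to 0.58 and -0.88 to 0.97, and that of the goat-named strands from -0.029 to 0.35, -0.50 to -0.01 and -0.36 to 0.13. chi-miR-199a-5p from 1 to 12 months ran from -0.98 to 0.071, and chi-miR-30e-5p from -0.063 to 0.69 and, from 1 to 24 months, from -0.12 to 0.72. With both ages only, chi-miR-30e-5p from 1 to 12 months was -0.033.

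Same-numbered libraries did not deviate together (r from -0.20 to 0.17). Such pairs are too few to decide whether the goats were paired, and the labels name no pairing. The replicate block adds a term for each replicate number to the fit, which leaves fewer residual degrees of freedom. Replicate numbers 1 and 4 occur in 1 library each, so the block fits 1-month 1 and 12-month 4 exactly. The shifts and lost calls under the block therefore cannot be read as an effect of the replicate number. With the replicate block, chi-miR-21-5p was -0.64, -0.10 and -0.74 and miR-21-x -1.74, 0.48 and -1.26, miR-21-y was -0.89 from 1 to 12 months, chi-miR-155-5p from 1 to 12 months was -3.28 (edgeR adjusted p = 0.0967), and calls over all entries went from 180 to 4 and from 246 to 71.

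With DESeq2, 285 and 358 entries passed from 1 to 12 and 1 to 24 months. With 3 goats per age, the interval of chi-miR-21-5p from 1 to 24 months holds a fall of more than 2-fold, with a depth of 59255 counts or more per library. The lowest miR-21-y count was 38. The alternative with goat-named entries only gives no value for miR-21-x and miR-21-y.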
